A study of Mus musculus with 36 samples.

Results

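Nodal is a secreted growth factor of the transforming growth factor beta family. It signals through type I and type II activin receptors together with an EGF-CFC co-receptor, and the signal reaches the nucleus through SMAD proteins that act on DNA with partners such as FOXH1. The pathway induces its own secreted antagonists, the Lefty proteins, and is known for mesendoderm formation and for setting up the body axes of the early mouse embryo. Here 7 genes of this pathway were followed in mouse embryonic stem cells: the ligand genes Nodal and Gdf3, the co-receptor gene Tdgf1 (Cripto), the type II receptor gene Acvr2b, the transcription factor gene Foxh1 and the antagonist genes Lefty1 and Lefty2. They were taken by symbol from a table of 55335 genes, where each symbol stood for 1 gene ID, and all 7 were among the 17394 genes that passed the filter on low counts.

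The genes were chosen by measured values of these libraries, since Tdgf1 showed the strongest change of its IAA effect between days. Of the 17394 genes it had rank 1 by the p-value of that change and rank 37 by the range of its IAA log2 fold change over the 4 days. Lefty2 had rank 15 and Lefty1 rank 74 by the same p-value. For this reason the IAA values of all 7 genes, and the course of Tdgf1 in DMSO, are given below as descriptions without a test. The BPK25 comparisons of all 7 genes and the DMSO course of the other 6 were tested. These tests use the DMSO libraries against which the IAA effect of each day was measured. Their p-values, above all those of Lefty1 and Lefty2 in the DMSO course, are therefore not independent of the choice of genes.

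Polyadenylated RNA was sequenced from mES cells, grown per the labels' protocols in serum replacement medium with LIF, typically on gelatin with irradiated mouse fibroblast feeders. The 3 treatments were DMSO (the solvent control), BPK25 (a compound known here only by this code name) and auxin (IAA), which makes cells degrade a protein that carries a degron tag. Each was sampled at days 0, 2, 4 and 6 with 3 libraries, giving 12 groups and 36 libraries of 6621288 to 16497799 counts. The series title concerns the NuRD remodelling complex and CTCF sites. The tagged protein, the doses, the event from which days are counted and the clone or clones used are not stated in the labels. Since no label says that the 3 libraries of a group were separate cultures, a p-value here reflects the spread among libraries, which may be technical.

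All 10 embryonic stem cell markers on the list used (Pou5f1, Sox2, Nanog and others) were measured at day 0. Their summed level in DMSO was 2969 to 3116 CPM at day 0 and 869 to 886 CPM at day 6. CPM are counts relative to the TMM-scaled total of a library. A list of 12 fibroblast markers, the genes a feeder layer would bring, had 11 that passed the filter, and its summed level in DMSO was 180 to 183 CPM at day 0 and 391 to 402 CPM at day 6. Most of the sum came from Pdgfra, which primitive endoderm also expresses, and Fbn1, with means of 127 and 25.9 CPM at day 0. Col3a1 was then at 1.80 CPM, Thy1 at 0.608, Dcn at 0.235 and Lum at 0.0972 CPM, and Twist2 was at 0. The sum is therefore not specific to fibroblasts. In bulk RNA, fewer cells of a type and less RNA per cell cannot be told apart.

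The 7 genes lie at 6 loci. Positions are on GRCm38 with GENCODE M21 gene models. Lefty2 (chromosome 1, 180893108 to 180899103, plus strand) and Lefty1 (chromosome 1, 180935022 to 180938400, plus strand) are 35.9 kb apart. Tdgf1 (chromosome 9, 110939603 to 110946158, minus strand) and Acvr2b (chromosome 9, 119402118 to 119434995, plus strand) share a chromosome. Nodal is on chromosome 10 (61417972 to 61425338, plus strand), Gdf3 on chromosome 6 (122605403 to 122610087, minus strand) and Foxh1 on chromosome 15 (76668225 to 76669948, minus strand). No exon of these 7 genes overlapped an exon of another gene in the annotation.

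Promoter sequence was at hand for Nodal, Tdgf1 and Acvr2b (RefSeq, GRCm38.p6). The 250 bases before the start of Tdgf1 and of Nodal are shown because the co-receptor gene and its ligand gene went opposite ways in IAA at days 0, 4 and 6. Both run 5′ to 3′ on the gene's strand, chr9:110946159-110946408 for Tdgf1 and chr10:61417722-61417971 for Nodal. Capitals mark matches to GGGNGTGG, a motif of KLF factors.
Tdgf1: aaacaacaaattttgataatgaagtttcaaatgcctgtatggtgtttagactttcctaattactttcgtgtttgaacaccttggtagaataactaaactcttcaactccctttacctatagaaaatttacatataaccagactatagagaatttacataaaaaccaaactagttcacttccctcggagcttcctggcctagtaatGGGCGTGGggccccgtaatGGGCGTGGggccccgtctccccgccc
Nodal: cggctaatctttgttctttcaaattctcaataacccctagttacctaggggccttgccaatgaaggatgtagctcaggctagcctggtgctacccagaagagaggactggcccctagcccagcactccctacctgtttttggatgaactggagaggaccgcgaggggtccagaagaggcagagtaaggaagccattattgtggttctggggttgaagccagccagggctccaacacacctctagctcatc

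The Tdgf1 window held 2 such matches, starting 45 and 26 bases before the start site, and the Nodal and Acvr2b windows held none. Of 32851 promoter windows of this length, 15.9% held at least 1 match on either strand. This motif was added to the search after the Tdgf1 sequence had been read. The other motifs, searched on both strands, were AATCCACA (FOXH1), GTCTAGAC (SMAD), CAGAC (the short SMAD box), ATGCAAAT (the POU octamer), a CTCF core motif and the TATA box. Of these only the short SMAD box was found, once each in the Tdgf1 and Acvr2b windows, and 42.2% of all windows hold it. The TATA box was searched as TATAAA. The GC content was 42% for Tdgf1, 53.2% for Nodal and 72.8% for Acvr2b, against a median of 52.4% over all windows.

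**Figure D1:**
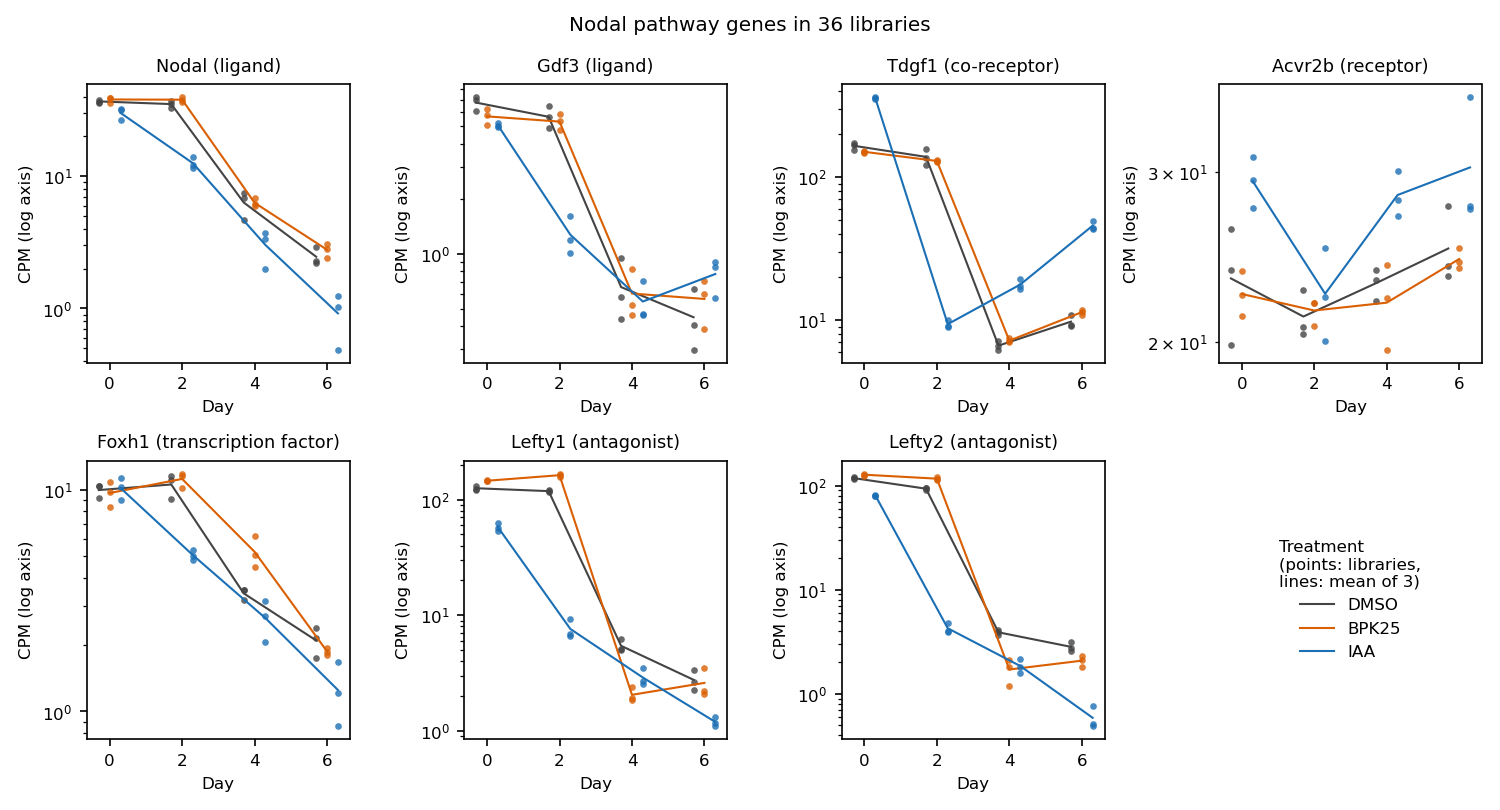
Level in CPM (log axis) of each of the 7 genes by day, with a point for each library and a line through the mean of 3 libraries per treatment. Tdgf1 in IAA is highest at day 0 (355 CPM), low at day 2 (9.38 CPM) and up again at day 6 (45.7 CPM), while Acvr2b stays between 19.6 and 35.9 CPM in all libraries.

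In DMSO, the ligand, antagonist and transcription factor genes had fallen by day 4, and the receptor gene Acvr2b had not changed past the test's threshold. Of the 6 genes tested, 5 were lower at day 4 than at day 0, as were 5 at day 6 (edgeR's quasi-likelihood test, adjusted p under 0.05), and none of the 6 rose. Of all genes, 50.3% were called at day 4 (26.0% higher, 24.4% lower) and 62.7% at day 6 (33.2% higher, 29.5% lower). The median log2 fold change of the 6 was −2.92 at day 4 and −3.87 at day 6, against 0.02 and 0.03 over all genes tested. At day 2 only Lefty2 was called among the 6, where 5.44% of all genes were called, 1.59% higher and 3.85% lower. The 3 comparisons share the DMSO day 0 libraries, and the DMSO libraries also entered the choice of the genes. Sums of markers of other cell types moved over the same days. In DMSO the 10 endoderm markers summed to 531 to 537 CPM at day 0 and 815 to 827 CPM at day 6, the 5 neural markers to 66.8 to 71.1 and 126 to 133 CPM, and the fibroblast list to the values above. Not every marker rose by mean level. The neural genes Sox1 (14.3 to 11.7 CPM) and Tubb3 (18.0 to 15.2) fell, whereas Pax6 (15.5 to 48.6), Nes and Map2 rose. Amn of the endoderm list (18.5 to 14.2) and Pdgfrb of the fibroblast list (6.39 to 5.29) also fell. Most of the endoderm sum was Dab2, at 350 and 501 CPM. The part of these markers in the differences was not tested.

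Nodal stood at 36, 36.4 and 38 CPM in the 3 DMSO libraries of day 0 and at 33.1 to 36.9 CPM at day 2. It then stood at 6.83, 4.67 and 7.49 CPM at day 4 and at 2.90, 2.28 and 2.21 CPM at day 6. The day 4 and day 6 libraries do not overlap each other or the earlier ones. The log2 fold change against day 0 was −2.57 ± 0.12 at day 4 and −3.85 ± 0.13 at day 6 (adjusted p = 1.25e-23 and 1.98e-29). After a log2 fold change, ± is an approximate standard error from the F value of the test.

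Gdf3, the less abundant ligand gene, encodes a growth factor related to Nodal that also uses the co-receptor. Its DMSO libraries held 7.23, 6.96 and 6.05 CPM at day 0. At day 4 they held 0.577, 0.953 and 0.441 CPM, a log2 fold change of −3.28 ± 0.25 (adjusted p = 8e-16). From day 4 on, every library of every treatment had only 3 to 10 counts of Gdf3, so differences between treatments of the size seen there could not be resolved at this depth.

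Lefty1 and Lefty2, whose proteins block Nodal and its co-receptor, had the deepest falls of the 6. Lefty1 was at 122, 132 and 122 CPM in DMSO at day 0, at 115 to 120 CPM at day 2 and at 5.10, 5.05 and 6.17 CPM at day 4. Its log2 fold change was −4.55 ± 0.09 at day 4 and −5.55 ± 0.09 at day 6 (adjusted p = 4.03e-39 and 5.89e-42). Lefty2 went from 117, 122 and 115 CPM at day 0 to 94.5, 89.6 and 95.6 CPM at day 2, and its groups did not overlap. This was a log2 fold change of −0.34 ± 0.05 (adjusted p = 5.09e-06), followed by −4.93 ± 0.08 at day 4 and −5.39 ± 0.08 at day 6 (adjusted p = 4.65e-42 and 2.59e-44). Lefty1 at day 2 had a log2 fold change of −0.08 ± 0.05, which was not called (adjusted p = 0.453).

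Foxh1, whose product recruits SMADs to DNA, was at 10.4, 10.4 and 9.16 CPM in DMSO at day 0. It was at 3.17, 3.53 and 3.53 CPM at day 4 and 2.15, 2.38 and 1.75 CPM at day 6, again without overlap. The log2 fold change was −1.55 ± 0.16 at day 4 and −2.25 ± 0.17 at day 6 (adjusted p = 2.36e-11 and 1.79e-16). Acvr2b, a type II receptor shared by Nodal and activins, was the exception. It was at 26.2, 19.8 and 23.7 CPM at day 0 and at 23.4, 27.6 and 23.9 CPM at day 6, and its log2 fold change was −0.01 ± 0.10 at day 4 and 0.09 ± 0.10 at day 6 (adjusted p = 0.962 and 0.409). Over all 36 libraries its highest level was 1.83 times its lowest, compared with 268 times for Lefty2, 153 times for Lefty1, 81.6 times for Nodal and 58.3 times for Tdgf1.

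Tdgf1, described without a test, had 167, 155 and 173 CPM in DMSO at day 0 and 136, 156 and 122 CPM at day 2. It had 7.12, 6.20 and 6.61 CPM at day 4 and 9.10, 10.9 and 9.29 CPM at day 6. The day 6 libraries lie above those of day 4, whereas for Nodal, Foxh1, Lefty1 and Lefty2 the day 6 mean is below the day 4 mean.

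In IAA, Tdgf1 was higher than in DMSO at 3 of the 4 days, while Nodal, Lefty1 and Lefty2 were lower at all 4. At day 0 its libraries had 361, 348 and 356 CPM, above all DMSO libraries of that day (155 to 173 CPM) and the highest of all 12 groups. At day 2 they had 10, 9.08 and 9.02 CPM, below the DMSO libraries (122 to 156 CPM). At day 4 they had 16.4, 17.4 and 19.4 CPM and at day 6 44.3, 49.4 and 43.5 CPM, both above DMSO. The log2 fold changes against DMSO of the same day were 1.11 ± 0.05, −3.88 ± 0.08, 1.42 ± 0.12 and 2.24 ± 0.09 at days 0, 2, 4 and 6, or 2.15-fold higher, 14.7-fold lower, 2.68-fold higher and 4.72-fold higher. These are the values that put the gene on the list.

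Ordered by mean level, Tdgf1 was highest in IAA at day 0, followed by DMSO and BPK25 at day 0. BPK25 at day 0, DMSO at day 2 and BPK25 at day 2 came next, and the libraries of each overlapped those of the next. IAA at day 6 and IAA at day 4 followed, each apart from its neighbours in the order. The lower end held BPK25 and DMSO at day 6 and IAA at day 2, which overlapped in turn, and then BPK25 and DMSO at day 4, which overlapped each other.

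Lefty1 and Lefty2 were lower in IAA than in DMSO at every day, with no overlap of libraries. Lefty1 had 53.3, 56.7 and 63.1 CPM in IAA at day 0 against 122 to 132 CPM in DMSO, and 9.28, 6.61 and 6.93 CPM at day 2 against 115 to 120 CPM. Its log2 fold changes were −1.13 ± 0.06, −3.98 ± 0.08, −0.89 ± 0.18 and −1.14 ± 0.26 at days 0, 2, 4 and 6. Lefty2 had 82.0, 79.9 and 79.4 CPM in IAA at day 0 and 4.83, 4.05 and 3.89 CPM at day 2. Its log2 fold changes were −0.55 ± 0.05, −4.47 ± 0.08, −1.06 ± 0.18 and −2.19 ± 0.26, the last resting on 8, 4 and 4 counts in the IAA libraries. At day 0, then, the co-receptor gene was higher and both antagonist genes were lower in the same libraries.

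The ligand gene Nodal was lower in IAA at all 4 days, also without overlap. It had 26.5, 31.5 and 32.3 CPM at day 0, 14, 11.4 and 12.2 CPM at day 2, 3.75, 3.33 and 1.97 CPM at day 4 and 1.24, 1.03 and 0.486 CPM at day 6. The log2 fold changes were −0.29 ± 0.09, −1.5 ± 0.10, −1.06 ± 0.19 and −1.41 ± 0.31. Gdf3 was at 5.24, 5.01 and 4.95 CPM at day 0 and at 1.02, 1.18 and 1.61 CPM at day 2 in IAA, both below DMSO, and overlapped DMSO at days 4 and 6. Foxh1 overlapped DMSO at day 0 (9.02 to 11.3 CPM in IAA) and was below it at day 2, at 4.83, 5.33 and 5.03 CPM, a log2 fold change of −1.07 ± 0.14. It was also below DMSO at day 4 (2.06 to 3.16 against 3.17 to 3.53 CPM) and day 6 (0.856 to 1.68 against 1.75 to 2.38 CPM). The log2 fold changes of Foxh1 there were −0.35 ± 0.20 and −0.79 ± 0.27. Acvr2b was at 31.1, 27.5 and 29.4 CPM in IAA at day 0, above all 3 DMSO libraries, overlapped at day 2, lay above at day 4 (27.0 to 30.1 CPM) and overlapped at day 6.

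Counted over the 7 genes, 2 were higher and 4 lower without overlap of libraries at day 0, 0 and 6 at day 2, 2 and 4 at day 4, and 1 and 4 at day 6. Over all genes, 24.8%, 29.5%, 29.1% and 31.8% were higher and 27.2%, 29.3%, 29.0% and 31.4% lower in this way. Since IAA values chose the list, nothing is read from these counts. The members' median log2 fold changes were −0.29, −2.14, −0.35 and −0.79 at days 0, 2, 4 and 6, against −0.03, −0.01, 0.00 and 0.00 over all genes. Nothing is read from these medians either, for the same reason. The levels of pluripotency genes ran alongside in part: Pou5f1 had 1018 ± 13.5 CPM in IAA and 833 ± 21.0 in DMSO at day 0, and 501 ± 10.2 and 796 ± 16.1 at day 2 (SD, n = 3). The summed embryonic stem cell markers were 4136 to 4184 CPM in IAA at day 0 and 1691 to 1722 at day 2, against 2850 to 2861 in DMSO at day 2. At day 6 they were 745 to 767 CPM in IAA and 869 to 886 in DMSO, the day at which Tdgf1 was 4.72-fold higher in IAA. The summed fibroblast list at day 2 was 250 to 264 CPM in IAA against 161 to 171 in DMSO, and its genes were split. Pdgfra (162 against 111 CPM), Fbn1 (54.2 against 24.6) and Col1a2 (14.7 against 2.70) were higher by mean level in IAA, whereas Col1a1 (3.15 against 4.26) and Col3a1 (0.650 against 1.81) were lower and Dcn and Lum were at 0. At day 6 the sum was 568 to 571 CPM in IAA. The endoderm markers summed to 330 to 341 CPM in IAA and 531 to 537 in DMSO at day 0, to 602 to 629 and 449 to 459 at day 2, to 915 to 929 and 550 to 566 at day 4, and to 802 to 823 and 815 to 827 at day 6. Most of each sum was Dab2, at 434 CPM in IAA and 296 in DMSO at day 2. Of that list, Gata4 (15.4 against 32.2 CPM) and Sox17 (18.3 against 25.9) had lower means in IAA at day 2. At day 6 Apoa1 (77.2 against 6.29 CPM), Ttr (34.2 against 4.45) and Afp (17.9 against 2.48) were higher in IAA. The other endoderm markers then had lower means in IAA, among them Gata4 (38.4 against 61.2 CPM) and Sox17 (34.5 against 60.2). The 5 mesoderm markers, of which 3 passed the filter, summed to 39.8 to 42.6 CPM in IAA and 18.5 to 20.7 in DMSO at day 2. That list was split too. The higher sum in IAA came from Kdr and Eomes, whereas T and Mixl1, both at low levels, had lower means in IAA than in DMSO at day 2. The part of these cell markers in the values above was not tested.

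**Figure D2:**
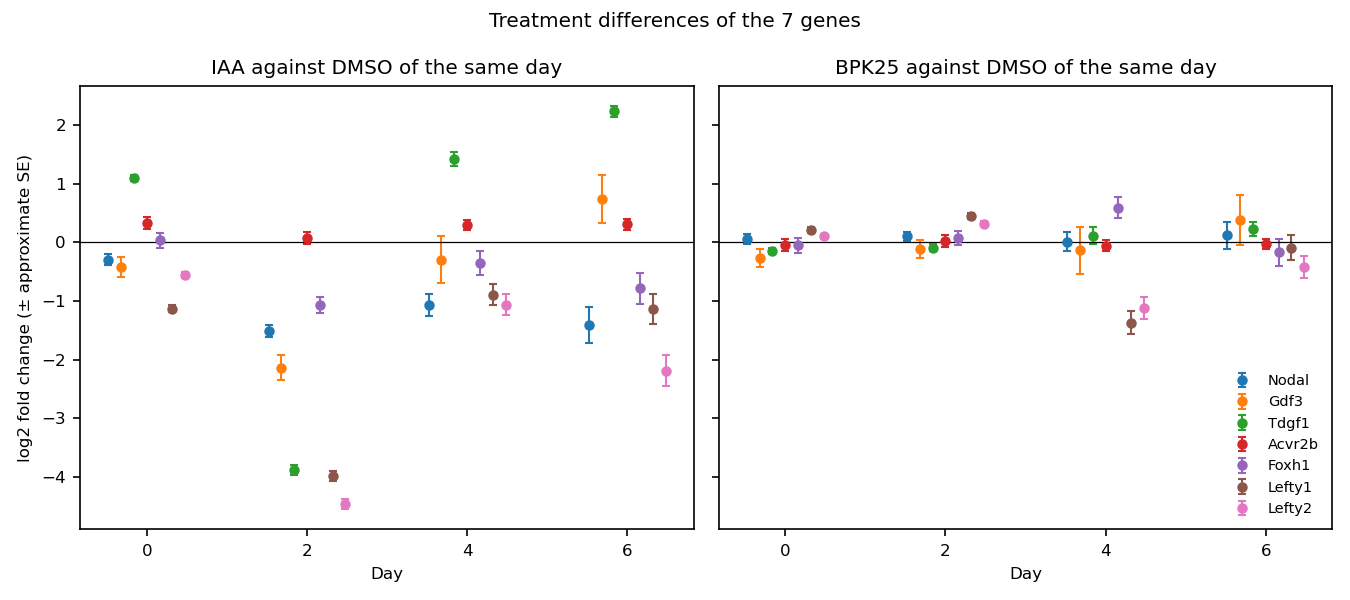
Log2 fold change of each gene (points, with approximate SE) against DMSO of the same day, for IAA on the left and BPK25 on the right, by day. Tdgf1 in IAA lies above 0 at days 0, 4 and 6 and at −3.88 at day 2, and in BPK25 the Lefty genes lie above 0 at day 2 and below it at day 4.

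BPK25 left Tdgf1 without a called difference at any day, and its called differences among the 7 genes were in Lefty1, Lefty2 and Foxh1. At day 0, 1 of 7 genes was called, higher (7.90% of all genes were called, 3.32% higher and 4.58% lower). At day 2, 2 were called, both higher (13.5% called, 6.40% higher and 7.12% lower). At day 4, 1 was called higher and 2 lower (53.0% called, 26.2% higher and 26.8% lower), so that 3 of 7 was not above the share over all genes. At day 6, 0 were called (7.09% of all genes, 4.01% higher and 3.08% lower), 0 had an unadjusted p under 0.05, and DESeq2 called 0 of the 6 for which it gave an adjusted p. The BPK25 and IAA comparisons share the DMSO libraries of each day.

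Lefty1 had 144, 145 and 148 CPM in BPK25 at day 0, above the DMSO libraries (122 to 132 CPM). At day 2 it had 168, 162 and 158 CPM against 115 to 120 CPM. At day 4 it had 1.91, 1.84 and 2.40 CPM, below the 5.05 to 6.17 CPM in DMSO, and at day 6 the groups overlapped. The log2 fold changes were 0.21 ± 0.05, 0.46 ± 0.05, −1.37 ± 0.20 and −0.09 ± 0.21 at days 0, 2, 4 and 6 (adjusted p = 0.00588, 7.41e-09, 9.53e-08 and 0.879). The direction at day 4 was thus the opposite of that at days 0 and 2. These Lefty1 differences amount to 1.16-fold and 1.37-fold higher and 2.58-fold lower.

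Lefty2 followed the same order of values. It had 130, 125 and 126 CPM in BPK25 at day 0, against 115 to 122 CPM in DMSO, a log2 fold change of 0.11 ± 0.05 that was not called (adjusted p = 0.151). At day 2 it had 116, 121 and 112 CPM against 89.6 to 95.6 CPM, a log2 fold change of 0.32 ± 0.05 (adjusted p = 1.57e-06). At day 4 it had 1.82, 1.18 and 2.13 CPM against 3.66 to 4.11 CPM, a log2 fold change of −1.12 ± 0.19 (adjusted p = 7.22e-06). At day 6 the value was −0.41 ± 0.19 (adjusted p = 0.298).

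Foxh1 moved the other way at day 4, with 4.48, 6.18 and 5.09 CPM in BPK25 against 3.17, 3.53 and 3.53 CPM in DMSO. The log2 fold change was 0.59 ± 0.18 (adjusted p = 0.0039), and at the other days its libraries overlapped those of DMSO. Nodal, in contrast, overlapped DMSO at all 4 days, with log2 fold changes of 0.05 ± 0.08, 0.10 ± 0.08, 0.01 ± 0.16 and 0.12 ± 0.23. At day 4, where both Lefty genes were lower, Nodal had 6.13, 6.84 and 5.92 CPM in BPK25 and 6.83, 4.67 and 7.49 CPM in DMSO. Acvr2b had log2 fold changes between −0.06 and 0.02 at the 4 days, and Gdf3 between −0.27 and 0.39, none of them called.

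Tdgf1 had 148, 152 and 149 CPM in BPK25 at day 0, just below the 155 to 173 CPM in DMSO. At day 2 it had 127, 130 and 131 CPM, within the DMSO range of 122 to 156. It had 7.46, 7.10 and 7.03 CPM at day 4 and 10.8, 11.9 and 11.4 CPM at day 6, both overlapping DMSO. The log2 fold changes were −0.14 ± 0.05, −0.09 ± 0.05, 0.12 ± 0.15 and 0.23 ± 0.12 (adjusted p = 0.0971, 0.311, 0.526 and 0.252). The day 2 value was called without DMSO day 2 replicate 3, at −0.18 (adjusted p = 0.0217).

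A joint test asked whether the difference between BPK25 and DMSO itself changed between days. It was called for Lefty1 (adjusted p = 1.74e-09), Lefty2 (adjusted p = 3.13e-08) and Foxh1 (adjusted p = 0.0492), and for 47.1% of all genes. Tdgf1 (adjusted p = 0.0528), Gdf3 (0.689), Acvr2b (0.956) and Nodal (0.959) were not called. Foxh1 and Tdgf1 lay close to the threshold. The call of Foxh1 was lost with DESeq2 (adjusted p = 0.135) and in the replicate block fit (0.0555), and in 19 of the 24 fits that left out 1 library, with an adjusted p of 0.194 without BPK25 day 4 replicate 2. Tdgf1 was called without DMSO day 0 replicate 2, day 2 replicate 2, day 2 replicate 3 or day 6 replicate 2, with adjusted p from 0.0102 to 0.0302. At day 4 the summed fibroblast list was 189 to 196 CPM in BPK25 against 257 to 269 CPM in DMSO. Most of that difference lay in Pdgfra (96.3 against 159 CPM), Dcn and Lum were at 0 in BPK25, and Col5a1 (22.5 against 19.9), Thy1 (2.77 against 1.33) and Pdgfrb (6.5 against 5.19) had higher means there. The endoderm markers summed to 457 to 472 CPM in BPK25 and 550 to 566 in DMSO, and that list was split by mean level. Dab2 (282 against 346 CPM), Sox17 (18.5 against 37.4), Gata4 (10.4 against 29.7), Sox7, Gata6 and Amn were lower in BPK25. Afp (24.7 against 0.901 CPM), Apoa1 (21.6 against 2.45), Ttr (13.3 against 1.67) and Foxa2 were higher. The summed embryonic stem cell markers were 1179 to 1201 CPM against 1325 to 1426 CPM. Their part in the day 4 differences was not tested.

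Within a library, the ratio of 2 genes does not depend on the scaling of its total. Per kilobase of exon, Tdgf1 to Lefty1 stood at 0.924, 0.789 and 0.947 in DMSO at day 0 and at 4.54, 4.12 and 3.78 in IAA. At day 2 the ratio was 0.784 ± 0.115 in DMSO and 0.840 ± 0.102 in IAA (SD, n = 3), although Tdgf1 was 14.7-fold and Lefty1 15.8-fold lower in IAA. At day 6 it was 2.40 ± 0.271 in DMSO, 3.06 ± 0.675 in BPK25 and 25.8 ± 3.16 in IAA. In BPK25 at day 4 it was 2.62, 2.59 and 1.96, against 0.936, 0.822 and 0.718 in DMSO. The ratio was thus separate from DMSO in IAA at days 0, 4 and 6 and in BPK25 at days 0, 2 and 4, and it was not tested.

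The ratio of Lefty1 to Lefty2, per kilobase of exon, was 1.54, 1.61 and 1.58 in DMSO at day 0 and 0.965, 1.05 and 1.18 in IAA. At day 2 it was 1.89, 1.91 and 1.86 in DMSO, 1.98 to 2.15 in BPK25 and 2.85, 2.43 and 2.64 in IAA. At day 6 it was 1.45 ± 0.189 in DMSO and 3.09 ± 0.429 in IAA. The ratio within the pair was therefore not constant over the groups. The 2 genes share sequence: 17.9% of the 50-base words of Lefty1 and 12% of those of Lefty2 occur in the other gene's transcripts, and 5.85% and 3.86% of the 100-base words. Reads from these stretches cannot be assigned by sequence, so small differences between the 2 genes are uncertain.

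**Figure D3:**
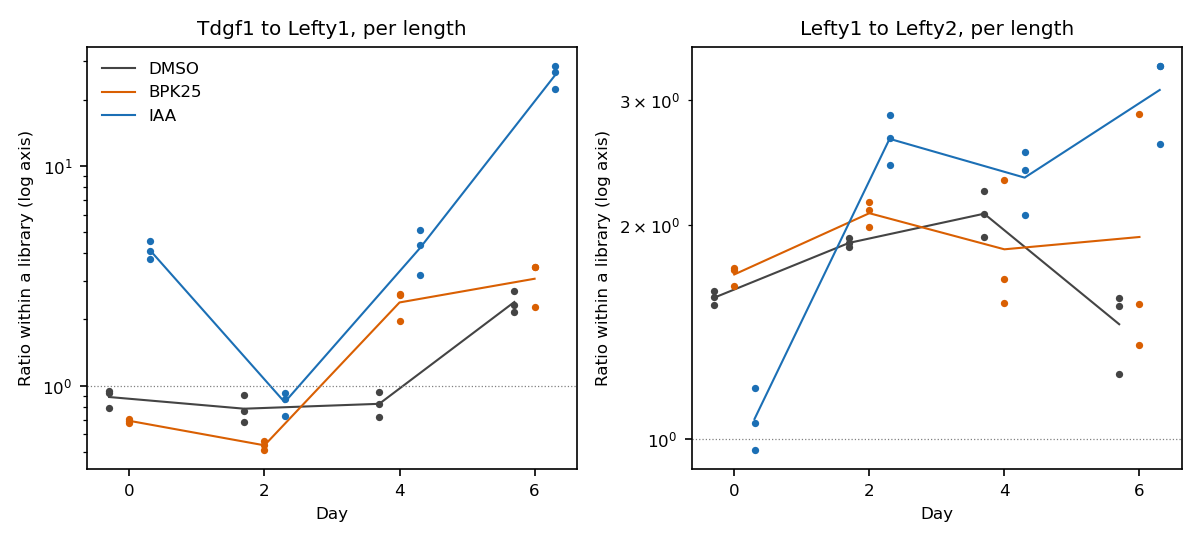
Ratio per kilobase of exon within each library (points; lines join the means of 3 libraries; log axes) of Tdgf1 to Lefty1 on the left and of Lefty1 to Lefty2 on the right, by day and treatment. The Tdgf1 to Lefty1 ratio in IAA goes from 4.15 at day 0 to 0.840 at day 2 and 25.8 at day 6, and the dotted line marks a ratio of 1.

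Levels per length place the genes against each other. In DMSO at day 0, Lefty1 had 71.3 ± 3.32 RPKM (CPM per kilobase of exon), Tdgf1 63.0 ± 3.41 and Nodal 17.6 ± 0.514, while Gdf3 was lowest at 2.78 ± 0.254 (SD, n = 3). In DMSO at day 4 Acvr2b, at 5.85 ± 0.221 RPKM, was the most abundant of the 7, above Lefty1 at 3.09 ± 0.359, Nodal at 3.02 ± 0.704 and Tdgf1 at 2.53 ± 0.176. In IAA at day 6 Tdgf1 was again the most abundant, at 17.4 ± 1.22 RPKM, and Nodal was at 0.438 ± 0.185.

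A processed copy of the co-receptor gene, Tdgf1-ps1, was counted too and tracked Tdgf1 at a low level. It had 9.68, 7.35 and 10.1 CPM in DMSO at day 0, 17.4, 16.9 and 16.7 CPM in IAA at day 0 and 0.889, 0.592 and 0.380 CPM in IAA at day 2. Of its 50-base words 50.9% occur in Tdgf1, and 8.86% of those of Tdgf1 occur in it. Its counts may hold reads of Tdgf1, or the reverse. Its highest library, at 17.4 CPM, had 361 CPM of Tdgf1.

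Across the means of the 12 groups on the log2 scale, Lefty1 and Lefty2 ran closest together of all pairs (Pearson r = 0.993), followed by Nodal and Foxh1 (0.985). Tdgf1 was less like Nodal (0.686) than Gdf3 was (0.906), and Acvr2b had r between −0.54 and 0.09 with the others. The 12 points share libraries and the fall over days, so these values describe the courses only. Among other genes with at least 5 CPM in a group (11628 genes), those most like Tdgf1 were the glutaminase gene Gls2 (r = 0.986), the telomere maintenance gene Ctc1 (0.983), Iqcg (0.983), the tRNA modifying enzyme gene Trit1 (0.972) and the cyclin gene Ccnt2 (0.969). Their span was much smaller. Gls2, for example, had means of 11.3 CPM in DMSO and 14.4 CPM in IAA at day 0, and of 6.17 CPM in IAA at day 2. For Lefty1 the most alike were Eif2d (0.990), Pml (0.987) and Exosc5 (0.987), for Lefty2 Exosc5 (0.995), Galnt6 (0.989) and Vars (0.989), and for Nodal Lim2 (0.994), Capns1 (0.992) and Stoml1 (0.991). These genes also had a smaller span than the members. Eif2d had means of 72.9 CPM in DMSO at day 0 and 34.6 CPM in IAA at day 6, where Lefty1 had 125 and 1.20 CPM.

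Genes near the members were compared in the same way. Sde2, 25 kb from the pair on the Lefty2 side, had a value of −0.07 ± 0.05 in IAA at day 2 (adjusted p = 0.278). Beside Tdgf1, Lrrc2 starts 5.39 kb from the start of Tdgf1 on the other strand. It was higher in IAA at day 0 (0.88 ± 0.12, adjusted p = 4.49e-08) and lower at day 2 (−3.22 ± 0.23, adjusted p = 4.18e-17), as Tdgf1 was. At day 6 Lrrc2 was lower in IAA (−1.58 ± 0.25, adjusted p = 6.05e-07), where Tdgf1 was higher.

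Gdf3 lies 2.96 kb from Apobec1, which encodes an RNA-editing cytidine deaminase, 16.3 kb from the germline and early embryo gene Dppa3 and 97.4 kb from Nanog. Apobec1, Dppa3 and Nanog fell in DMSO by day 4, as Gdf3 did (−3.28). Their log2 fold changes were −1.04 ± 0.22, −1.23 ± 0.13 and −1.47 ± 0.07 (adjusted p = 9.91e-05, 1.15e-11 and 3.75e-24). Mfap5, 76.1 kb from Gdf3 on the Apobec1 side, was not called there (−0.59 ± 0.29, adjusted p = 0.087). In IAA at day 2, where Gdf3 had −2.14, Apobec1, Dppa3 and Nanog were also lower, at −0.91 ± 0.20, −2.29 ± 0.14 and −1.19 ± 0.06 (adjusted p = 0.000121, 5.38e-19 and 2.03e-22). Mfap5 was again not called (−0.49 ± 0.25, adjusted p = 0.0923). In IAA at day 0, where Gdf3 had −0.42, the neighbours differed in direction. Dppa3 was lower (−0.43 ± 0.11, adjusted p = 0.00186) and Nanog higher (0.56 ± 0.06, adjusted p = 8.38e-12). Apobec1 (−0.11 ± 0.20, adjusted p = 0.68) and Mfap5 (0.14 ± 0.26, adjusted p = 0.693) were not called. In IAA at day 6 Apobec1 and Dppa3 were higher (1.64 ± 0.24 and 1.56 ± 0.12, adjusted p = 8.02e-08 and 1.31e-15) and Nanog lower (−1.67 ± 0.12, adjusted p = 1.23e-16). In BPK25 at day 4 Dppa3 (−1.44 ± 0.18, adjusted p = 1.43e-09) and Nanog (−0.79 ± 0.08, adjusted p = 9.5e-12) were lower, and Apobec1 was not called (−0.08 ± 0.25, adjusted p = 0.813). At these last 2 points Gdf3 had too few counts to be compared with them.

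**Figure D4:**
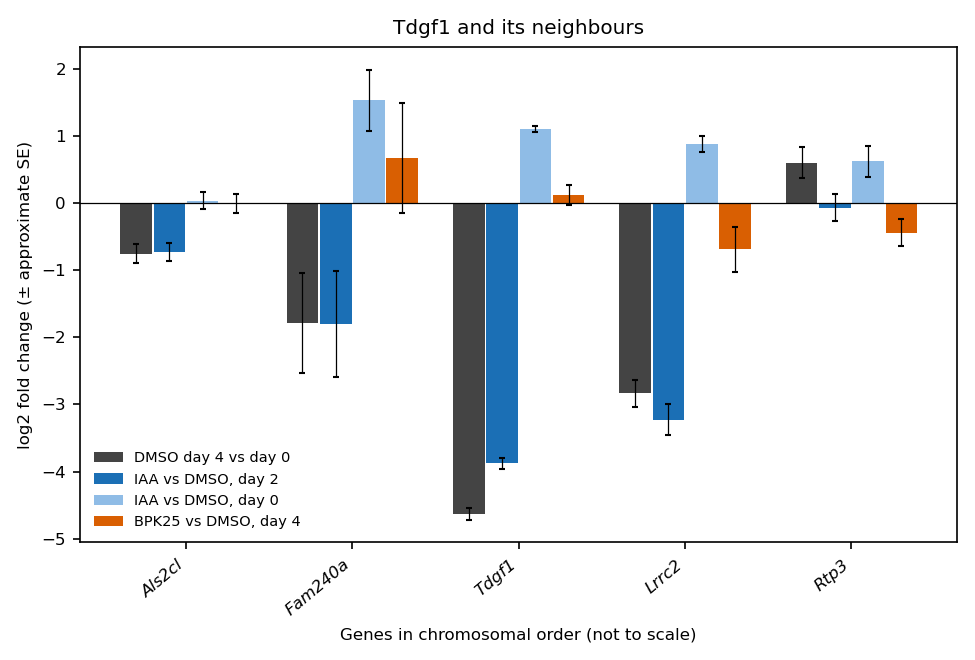
Log2 fold change (bars from 0, with approximate SE) of Tdgf1 and its neighbours in chromosomal order for DMSO day 4 against day 0, IAA against DMSO at days 2 and 0, and BPK25 against DMSO at day 4. Lrrc2 has the direction of Tdgf1 in the IAA bars of day 0 (0.88) and day 2 (−3.22), and spacing is not to scale.

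Of 50 other genes of the Nodal, activin and TGF-beta pathway that were measured, 29 (58%) were called in BPK25 at day 4, 16 higher and 13 lower, against 53.0% of all genes. In IAA 33, 34, 34 and 39 of the 50 were called at days 0, 2, 4 and 6, against 44.5%, 55.4%, 51.9% and 60.6% of all genes. Of the same genes 37 were called in DMSO at day 6, 24 higher and 13 lower, against 62.7% of all genes. Inha, Acvr1c, Cfc1, Cer1, Mixl1 and Gsc did not pass the filter. The lists were written with earlier results of these data known.

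By role, the counts in BPK25 at day 4 that follow stand against 26.2% of all genes called higher and 26.8% called lower. Some calls within the counts of this and the next paragraph were lost with other settings or without 1 library. Among the other ligand and processing genes, 2 of 9 rose in BPK25 at day 4, among them Tgfb1 (1.40 ± 0.24). The other call, of Tgfb2, was lost with DESeq2 (adjusted p = 0.0707) and, in edgeR, without a filter (adjusted p = 0.0753). In IAA at day 6, 2 rose and 6 fell (30.6% and 30.0% of all genes), with the TGF-beta genes Tgfb3 (2.40 ± 0.13) and Tgfb2 (2.1 ± 0.16) highest and the activin subunit gene Inhbb (−2.92 ± 0.38) lowest. Inhbb shared the day 4 fall of the members in DMSO, from 18.2 to 1.70 CPM (−3.41 ± 0.18), and was lower in IAA at day 2 (−1.83 ± 0.15). Of 6 other receptor genes, 2 rose and 1 fell in BPK25 at day 4, namely the type II receptor gene Acvr2a (0.42 ± 0.08), Tgfbr1 (0.19 ± 0.06) and Tgfbr2 (−1.01 ± 0.13). All 6 were called in IAA at day 2, 4 higher and 2 lower (27.5% and 27.9% of all genes), with Acvr2a at 0.79 ± 0.09, whereas Acvr2b was at 0.08 ± 0.10. Not every one of these 6 calls held with DESeq2.

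Of 10 other inhibitor genes, 2 rose and 4 fell in BPK25 at day 4 (again 26.2% and 26.8% of all genes). Fst, which encodes the activin-binding protein follistatin, fell furthest, from 38.2 CPM in DMSO to 4.54 CPM (−3.04 ± 0.11, adjusted p = 1.63e-28). Fst was lower in IAA at all 4 days (−1.79, −3.0, −1.31 and −2.73), as Lefty1 and Lefty2 were. In the DMSO course, by contrast, Fst was higher at day 6 than at day 0 (1.53 ± 0.07), where the Lefty genes were lower. Of 18 SMAD and regulator genes, 9 rose and 4 fell in BPK25 at day 4 (26.2% and 26.8% of all genes), with the inhibitory SMAD gene Smad7 (0.77 ± 0.11) highest and Smad3 (−0.61 ± 0.09) lowest. In IAA at day 0 Smad7 was higher (0.99 ± 0.09) and the repressor gene Ski lower (−0.50 ± 0.04).

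Of 9 textbook targets of the pathway, 3 rose and 4 fell in BPK25 at day 4 (26.2% and 26.8% of all genes), a list that also holds Smad7 and Skil. The homeobox gene Otx2 (−1.23 ± 0.22) was among those that fell, and Smad7 and Skil (0.72 ± 0.06) were highest. In DMSO, 2 of the 9 targets rose and 7 fell by day 6, where 33.2% of all genes were called higher and 29.5% lower. Foxa2, an endoderm gene, was among those that rose (1.62 ± 0.11), and the mesoderm gene T fell furthest (−2.69 ± 0.78) from a mean of 0.742 CPM. All these values are from edgeR's quasi-likelihood test, and the adjusted p of every gene given as called in this and the 2 preceding paragraphs is under 0.05 over the 17394 genes.

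**Figure D5:**
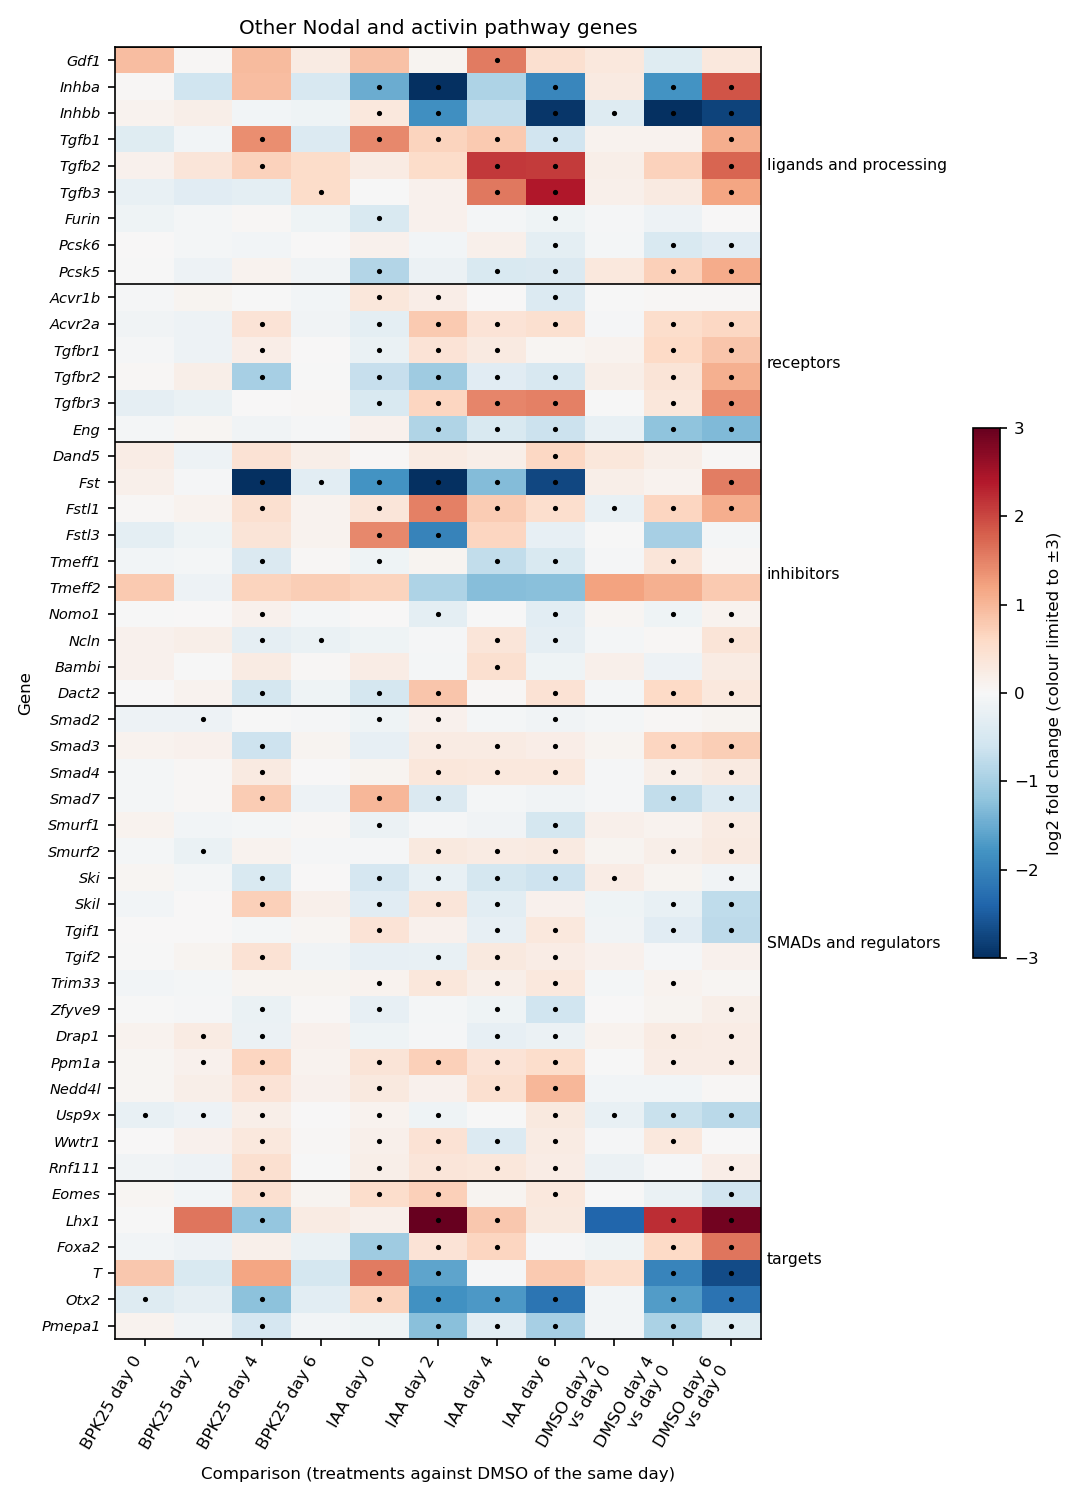
Log2 fold change (colour, limited to ±3) of most of the other ligand, receptor, inhibitor, SMAD and target genes in 11 comparisons. Dots mark an adjusted p under 0.05 (edgeR), which 29 of the 50 listed genes reach in BPK25 at day 4 and 2, 5 and 3 reach at days 0, 2 and 6.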

How the data were processed

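Polyadenylated RNA of mouse ES cells was, per the labels' protocols, made into libraries with a SMARTer kit. The submitters' processing notes name FastQC 0.11.7, HISAT2 2.1.0, featureCounts 2.0.1, DESeq2 and the mm10 genome. For the strand setting and the gene annotation nothing is given in the sources. What the authors deposited is, per the file headers, a single matrix of unnormalized counts for 55335 genes in 36 libraries. Columns were matched to libraries by title and grouped by the labels' treatment and day.

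From these counts, 17394 genes were kept by filterByExpr, given the 12 groups and with its minimum count at 10 and minimum total at 15. The 36 libraries entered 1 edgeR 4.0.16 fit (R 4.3.3, TMM scaling) with the quasi-likelihood test, two-sided, with Benjamini-Hochberg adjustment over the 17394 genes. A gene was called at an adjusted p under 0.05. Comparisons were each treatment against DMSO of its day, DMSO days 2, 4 and 6 against day 0, and a joint test of the BPK25 effect between days. On simulated counts for BPK25 against DMSO at day 0 (17394 genes) changes of 1.25, 1.5, 2 and 4-fold, set in 50 genes each, were called in 52%, 58%, 78% and 94% of them. False calls made up 5.37%, and 0 genes were called where none had changed. The simulation gave all genes the same dispersion (0.00149) and, apart from the set changes, the same mean in all 12 groups. The real counts do not have this setting, so these rates need not hold for them.

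The genes, pathway lists, markers and tests were chosen with earlier results of these data known. The 7 genes are always named. Of a pathway list, up to 2 genes with the highest and 2 with the lowest change among those called may be named in a comparison. Genes of like pattern were the top 5 for Tdgf1 and the top 3 for Lefty1, Lefty2 and Nodal, and neighbours were the nearest tested coding genes. Some results of single genes are not reported here. Named genes that lost their call under an alternative are mostly left out. Of 55335 gene IDs 54587 matched GENCODE M21. Alternatives were DESeq2 1.42.0, RLE size factors, fits without a filter or with one of 1 CPM in 3 libraries, fits of the compared libraries alone, a replicate term, fits without each library, and plain library totals for levels. Same-numbered libraries did not deviate together (33 pairs, r from −0.03 to 0.03). All 36 pairs of libraries within groups differed beyond sampling noise (chi-square divided by its degrees of freedom: 1.38 to 3.07).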

Additional observations from a re-analysis of the deposited data

Results flagged for a closer look

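Tdgf1 changed the sign of its IAA difference between days, with every IAA library on 1 side of every DMSO library at each day. The log2 fold changes were 1.11 at day 0, −3.88 at day 2, 1.42 at day 4 and 2.24 at day 6. The change between days was not tested here, because these values chose the gene.

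The BPK25 difference changed between days by the joint test for Lefty1 (adjusted p = 1.74e-09), Lefty2 (adjusted p = 3.13e-08) and Foxh1 (adjusted p = 0.0492). Lefty1 was 1.37-fold higher at day 2 and 2.58-fold lower at day 4, Lefty2 had log2 fold changes of 0.32 and −1.12 at the same days, and Foxh1 was 1.51-fold higher at day 4. For Foxh1 this call was lost in 19 of 24 fits that each left out 1 library.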

How the results depend on the processing

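Of 53 tested values of the 7 genes, 50 kept their side of the threshold under every alternative. No value that was called in the main or the alternative fit changed direction. Changes of sign in values called in neither fit were not counted, and the joint test has no direction. Of 31 described values 30 moved by less than the spread, the exception being Lefty2 in IAA at day 6, at −2.46 without IAA day 6 replicate 1. The joint test was the least steady: Foxh1 had an adjusted p of 0.0526 with RLE size factors, 0.135 with DESeq2, 0.159 without a filter and 0.0555 with the replicate block, and leaving out 1 library gave 2 to 4 called members. The replicate numbers did not pair the samples, and the replicate block changed no other call of the 7 genes. Leaving out 1 library gave 0 to 1 members called lower in BPK25 at day 2. Genes called in DMSO at day 2 numbered 946, or 620 with only the libraries compared and 364 to 889 without 1 library. In BPK25 they numbered 1374 at day 0, or 830 to 986 without 1 library, and 1233 at day 6, or 540 to 1200. Of 319 calls of other pathway genes and neighbours 241 held under every alternative, 78 were lost under at least 1 and 0 reversed. On plain library totals 7 of 84 mean levels moved beyond their SD, by a ratio of 0.939 to 1.04. Depth limits Gdf3 from day 4 on, at 3 to 10 counts per library.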
